A study of Mus musculus and synthetic construct with 15 samples.

Results

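The regions described here are the stretches of mouse DNA around Tbx5 whose enhancer activity in the heart was measured with a pooled reporter assay delivered by adeno-associated virus (AAV). A region belongs to Tbx5 when, of all protein-coding gene bodies, that of Tbx5 is closest to its midpoint and no more than 100 kb away, with gene bodies from RefSeq on GRCm38 (mm10). By this rule 5 of the 3820 regions in the count table are Tbx5 regions, and 3 of the 5 have a mean of at least 10 counts in the DNA libraries, the minimum used for testing. In all, 2601 regions reach this minimum. In the assay each candidate sequence drives a reporter away from its own place in the genome, and its RNA is compared with its share of the viral DNA. The AAV9 pool was given to wild-type mice (genotype WT, strain not given in the sources used here) on postnatal day 0, and tissue was taken on postnatal day 7. The groups were RNA from atrium (5 libraries), RNA from ventricle (5 libraries), both labelled as cardiomyocytes, and DNA labelled as the AAV9 library (5 libraries), for which viral genomes were released with proteinase K. The table holds reporter regions and no genes, so the labelled cell type could not be checked against marker genes. Nothing in the sources used here says whether the replicates came from separate animals, so p-values measure the spread between these libraries, which may be technical.

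Tbx5 encodes a T-box transcription factor. It is required for septation of the heart and for forelimb outgrowth, and loss of 1 human copy causes Holt-Oram syndrome, in which heart and hand are malformed. In the heart TBX5 acts together with GATA4 and NKX2-5. After birth its gene is more active in atria and in the conduction system than in the ventricular wall, and its product supports genes of atrial contraction and rhythm.

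The gene body of Tbx5 (gene identifier 21388) spans chr5:119796514-119885220, a length of 88707 bp. A pair of abutting 400 bp tiles lies below its lower end. The distal tile (chr5:119793840-119794239) has its midpoint 2475 bp outside the gene body and the proximal tile (chr5:119794240-119794639) 2075 bp. Both carry the tags GeneAVB, aMTF+p300 and p300AVB and the group name "spMTF or spP300" (p300 is a transcriptional co-activator; the tags are used as the file gives them). A mid-body region (chr5:119862410-119862809, tag GeneAVB) and a far-body region (chr5:119877235-119877634, tags GeneAVB and aMTF+p300), both in the group "MTF or P300", lie inside the gene body, 66095 and 80920 bp from its lower end. Exon and intron were not told apart with the annotation used here. The ESC-Neg region (chr5:119893047-119893446), in the group called Neg, has its midpoint 8026 bp past the upper end.

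Library totals ran from 877773 to 3781726 counts in RNA and from 2312820 to 2958271 in DNA. Replicate 1 was the shallowest library of each RNA group, and it stood apart in the 488 regions of the table that had 0 counts in all DNA libraries. Of these, 441 were also at 0 in atrial and 426 in ventricular replicate 1, against 33 to 36 in the other atrial and 11 to 27 in the other ventricular libraries. The mid-body and ESC-Neg regions are among the 488. The RNA over DNA ratio also moved with the amount of DNA over the whole table. Its median on the log2 scale was 1.21 in atrium and 1.43 in ventricle over the 854 regions with a mean of 10 to under 100 DNA counts, and -0.66 and -0.69 over the 1177 regions with 300 or more. Values of Tbx5 regions against DNA are therefore given beside the regions of the same DNA range. The part that the match between the DNA libraries and the injected pool plays in these ratios was not tested.

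The proximal tile drove more reporter RNA in atrium than in ventricle. Levels are given in CPM, counts scaled to a library size of 1000000 after adjusting all 15 libraries with TMM, a method that equalises the bulk of the regions. In atrial replicates 1 to 5 the proximal tile stood at 219, 172, 214, 257 and 188 CPM. In ventricular replicates 1 to 5 it stood at 55.3, 55.8, 58.6, 47.5 and 69.6 CPM. In the DNA libraries it ran from 15.4 to 20.02 CPM. Every atrial library lay above every ventricular library, as in 23.0% of tested regions (either chamber above). Every RNA library also lay above every DNA library. The atrial mean was 210 ± 32.8 CPM, the ventricular mean 57.4 ± 7.97 and the DNA mean 16.9 ± 1.87 (SD, n = 5 each). These levels rest on 211 to 542 counts per atrial library, 76 to 204 per ventricular library and 29 to 42 per DNA library.

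In the fit over all tested regions the proximal tile was 3.70-fold higher in atrium than in ventricle, a log2 difference of 1.89 ± 0.18 (SE; edgeR quasi-likelihood test, adjusted p = 9.08e-07). Of the 2601 tested regions 30.9% passed this test between chambers, 15.8% toward atrium and 15.1% toward ventricle. The proximal tile held rank 9 of 2601 from the atrial end. Among the 854 regions of its DNA range it held rank 6, where 6.21% passed toward atrium. The difference was as large in replicate 1, the shallow pair of libraries, at 1.99 on the log2 scale, as between the same-numbered libraries of replicates 2 to 5, where it ran from 1.43 to 2.44. When the libraries were scaled to the Neg regions, calls over the table moved from 412 toward atrium and 392 toward ventricle to 490 and 207, and the proximal tile stood at 2.03.

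**Figure D1:**
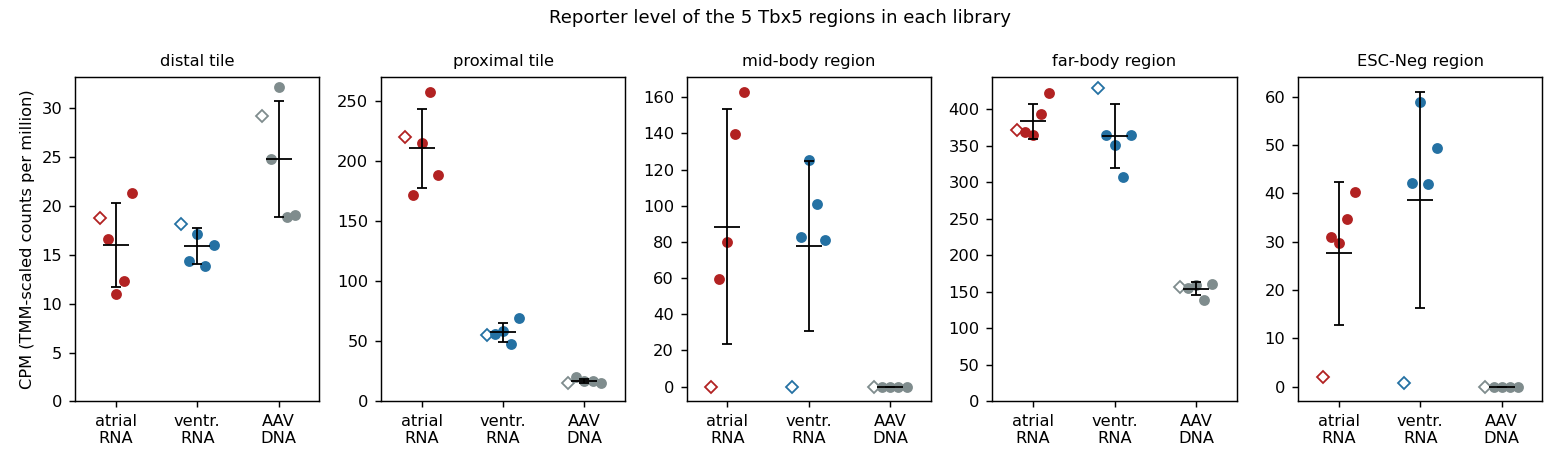
Level of each Tbx5 region in every library, in CPM on linear axes that differ between panels; open diamonds are replicate 1, filled circles replicates 2 to 5, and the black bar and whiskers the mean and SD over 5 libraries. The proximal tile separates atrium (172 to 257 CPM), ventricle (47.5 to 69.6 CPM) and DNA (15.4 to 20.02 CPM), while the mid-body and ESC-Neg regions are at 0 in DNA and at or near 0 in replicate 1 of RNA.

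The distal tile, which abuts the proximal tile and shares its tags, was low in both chambers. It stood at 18.7, 16.6, 11.0, 12.3 and 21.4 CPM in atrial replicates 1 to 5. It stood at 18.2, 14.3, 17.1, 13.8 and 16.03 CPM in ventricular replicates 1 to 5. The DNA libraries ran from 18.9 to 32.1 CPM. The chambers overlapped, and the log2 difference of atrium over ventricle was 0.02 ± 0.36 (SE; edgeR, adjusted p = 0.979). These values rest on 18 to 35 counts per atrial library and 25 to 57 per ventricular library. A difference of the size of this standard error, or somewhat larger, in either direction could not be told from 0.

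The count ratio of the proximal over the distal tile needs no scaling between libraries, since both counts come from the same library. In atrial RNA it was 11.7, 10.3, 19.6, 20.8 and 8.80 in replicates 1 to 5. In ventricular RNA it was 3.04, 3.90, 3.42, 3.44 and 4.34. In DNA it ran from 0.527 to 0.878, with the proximal tile the less abundant of the pair in all 5 libraries. The 3 groups did not overlap, so within a library the proximal tile was always the stronger of the pair in RNA, and more so in atrium. The table holds 201 pairs of abutting regions, of which 98 have both members tested. The log2 atrium over ventricle values of the Tbx5 pair differed by 1.87, against a median of 0.53 over the 98 pairs, and 1 pair differed by more. Against DNA the Tbx5 pair differed by 4.27 in atrium, where 8 of the 98 pairs differed by more. In ventricle against DNA it differed by 2.41, where 30 pairs differed by more. The 98 pairs were not limited to the DNA range of these tiles. In 37 pairs, the Tbx5 pair included, 1 of the members passed between chambers and the other did not, and in 4 pairs both passed.

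**Figure D2:**
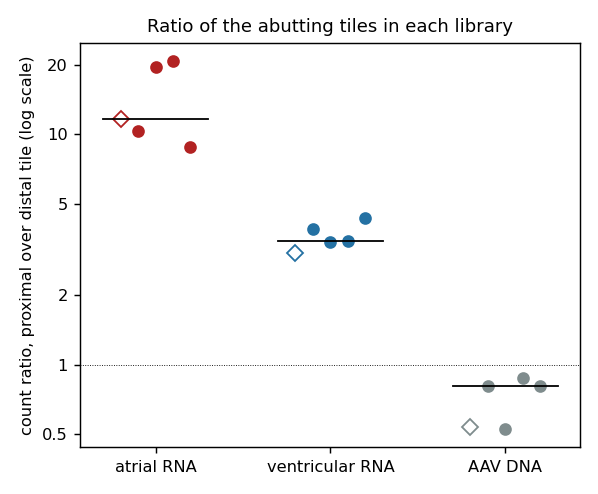
Count of the proximal tile divided by that of the abutting distal tile in each library, on a log axis; open diamonds are replicate 1, filled circles replicates 2 to 5, and lines the group medians. Atrial RNA lies between 8.80 and 20.8, ventricular RNA between 3.04 and 4.34 and DNA between 0.527 and 0.878.

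The far-body region was the most abundant of the Tbx5 regions in RNA, and its chambers overlapped. It stood at 371, 369, 365, 393 and 422 CPM in atrial replicates 1 to 5 and at 430, 364, 351, 307 and 365 CPM in ventricular replicates 1 to 5. The DNA libraries ran from 139.6 to 161 CPM, below every RNA library. The atrial mean was 384 ± 23.9 CPM and the ventricular mean 363 ± 44.0 CPM (SD, n = 5 each). The log2 difference between chambers was 0.10 ± 0.11 (SE; edgeR, adjusted p = 0.570), the smallest standard error of the 3 tested Tbx5 regions. In replicate 1 the difference was -0.21, and between the same-numbered libraries of replicates 2 to 5 it ran from 0.02 to 0.36. In replicates 2 to 5 the lowest atrial library stood at 364.85 CPM and the highest ventricular at 364.89 CPM. The fit on these replicates only gave 0.19 ± 0.12 (SE; edgeR, adjusted p = 0.290). Counts of the far-body region were 357 to 832 per atrial and 591 to 1166 per ventricular library. The proximal tile carried 0.446 to 0.655 times the counts of the far-body region in atrial libraries and 0.129 to 0.191 times in ventricular libraries, without overlap, whereas the distal tile carried 0.0300 to 0.0507 and 0.0393 to 0.0489 times.

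**Figure D3:**
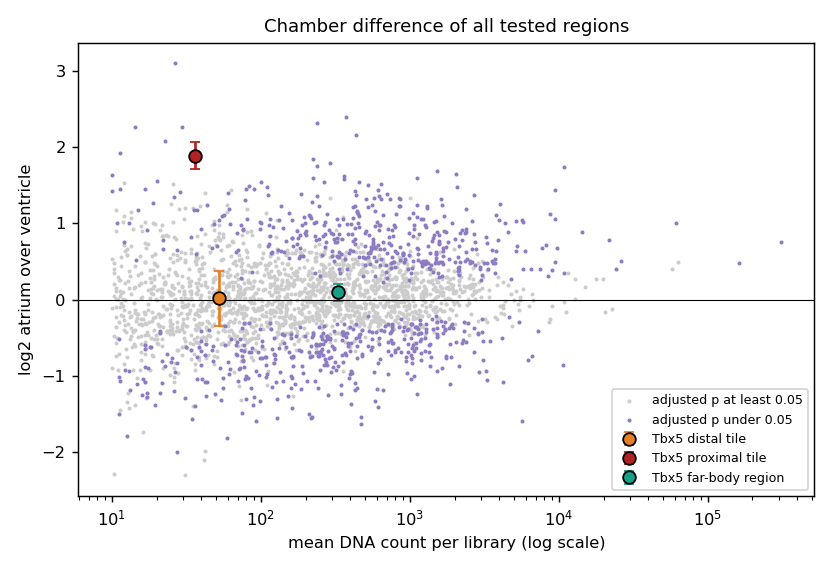
Log2 difference of atrium over ventricle (vertical axis, positive is higher in atrium) against the mean DNA count per library (log axis) for the 2601 tested regions, with the 3 tested Tbx5 regions and their SE in colour. The proximal tile lies at 1.89, near the upper edge of its DNA range, and the other Tbx5 regions lie near 0.

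Against DNA, the proximal tile and the far-body region were higher in RNA in both chambers and the distal tile was lower. Of the tested regions 74.7% passed between atrial RNA and DNA, 38.4% higher and 36.3% lower in RNA. Between ventricular RNA and DNA 81.2% passed, 43.4% higher and 37.8% lower. Libraries did not overlap in 60.4% of regions between atrial RNA and DNA (31.8% with RNA above) and in 70.0% between ventricular RNA and DNA (36.1% with RNA above). A call against DNA was therefore common, and the calls of the Tbx5 regions are read against the regions of the same DNA range. The splits of calls depended on the scaling. Atrial RNA gave 999 higher and 945 lower calls. Using library totals the split was 1189 to 676, and scaling to the Neg regions it was 1432 to 475. These settings moved the median log2 ratio over the table up by 0.33 and 0.65. Ventricular RNA gave 1129 higher and 983 lower calls. There library totals gave 1258 to 824 and Neg scaling 1376 to 709, with median shifts of 0.21 and 0.40.

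The proximal tile had 11.6 times more RNA than DNA in atrium, a log2 ratio of 3.53 ± 0.18 (SE; edgeR, adjusted p = 5.45e-10), and 3.39 times more in ventricle, 1.76 ± 0.19 (adjusted p = 1.79e-07). Scaled to the Neg regions these log2 ratios were 4.19 and 2.16. In atrium 88.9% of the 854 regions of its DNA range lay below it, and in ventricle 57.1%. A call above DNA was usual in that range, where 62.2% of regions passed as higher in RNA in atrium and 68.4% in ventricle. The medians of that range were 1.21 in atrium and 1.43 in ventricle. Replicate 1 alone gave 3.70 in atrium and 1.71 in ventricle, and the means of replicates 2 to 5 gave 3.62 and 1.78.

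The far-body region had log2 ratios of 1.21 ± 0.10 in atrium (SE; edgeR, adjusted p = 6.60e-08) and 1.23 ± 0.10 in ventricle (adjusted p = 7.89e-09). Scaled to the Neg regions they were 1.87 and 1.65. The regions of its DNA range, 300 counts or more, had medians below 0, and 93.3% of them lay below it in atrium and 91.5% in ventricle. In atrium 20.1% of that range passed as higher in RNA, and in ventricle 23.4%. That range has no upper limit, and the far-body region lies near its lower edge, at a mean of 330.4 DNA counts. In the range of 100 to under 300 DNA counts the medians were 0.20 in atrium and 0.28 in ventricle. There 40.5% and 47.2% passed as higher in RNA. The ratios of the proximal tile and the far-body region belong to different DNA ranges, and the order depends on how they are read. The proximal tile had the higher ratio in both chambers. The far-body region stood higher within its own range, but near the lower edge of that range. In ventricle the ratio of single RNA libraries to the DNA mean ran from 1.49 to 2.04 on the log2 scale for the proximal tile and from 0.99 to 1.48 for the far-body region.

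The distal tile had log2 ratios of -0.74 ± 0.28 in atrium (SE; edgeR, adjusted p = 0.0291) and -0.65 ± 0.24 in ventricle (adjusted p = 0.0189). Its atrial libraries overlapped the DNA libraries, and its ventricular libraries did not. Of the regions of its DNA range 9.84% lay below it in atrium and 7.85% in ventricle. The calls of the distal tile were not stable. They were lost with library totals (adjusted p = 0.222 and 0.121) and when scaled to the Neg regions (adjusted p = 0.794 and 0.379). The atrial call was also lost without atrial replicate 3 or 4 (adjusted p = 0.0571 and 0.0567) and without DNA replicate 1, 2 or 3 (adjusted p = 0.115, 0.0819 and 0.113), and the ventricular call without DNA replicate 1 or 3 (adjusted p = 0.0602 and 0.0559).

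**Figure D4:**
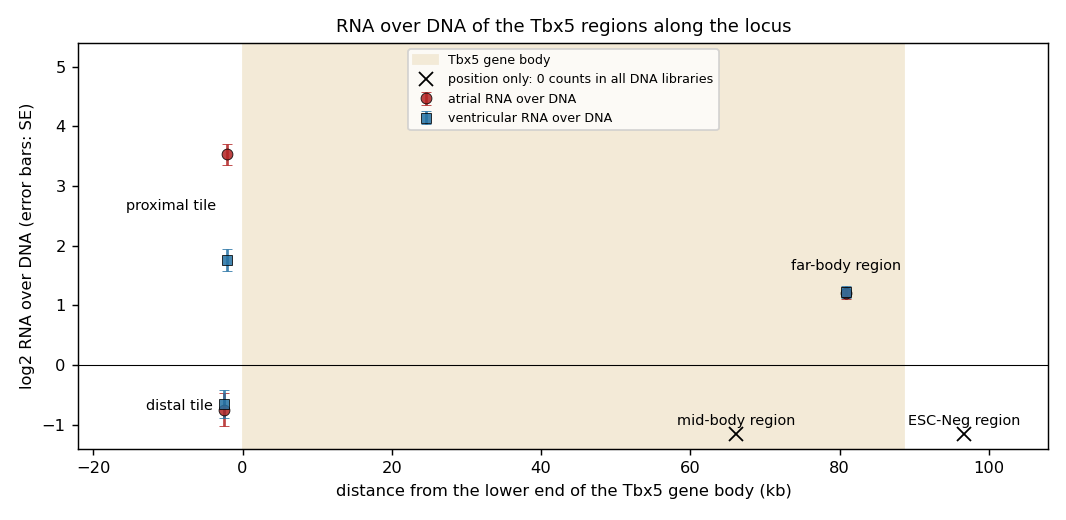
Log2 RNA over DNA with SE of the Tbx5 regions at their distance from the lower end of the gene body (shaded), with atrium as circles and ventricle as squares; crosses mark only the positions of the regions with 0 DNA counts. The proximal tile is at 3.53 in atrium and 1.76 in ventricle, the abutting distal tile below 0 in both, and the far-body region at 1.21 and 1.23, where the symbols cover each other.

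The mid-body and ESC-Neg regions were at 0 counts in each of the 5 DNA libraries. At 3 counts this allows up to 1.01 to 1.30 CPM of the unadjusted library total, for counting error only. They have no RNA over DNA value here. The mid-body region also had 0 counts in atrial and ventricular replicate 1. In atrial replicates 2 to 5 it had 100, 183, 294 and 267 counts, or 59.5, 80.3, 139.6 and 163 CPM. In ventricular replicates 2 to 5 it had 225, 416, 366 and 237 counts, or 82.6, 125.1, 101.1 and 80.8 CPM. The libraries thus split by replicate number, and within replicates 2 to 5 the chambers overlapped. With replicates 2 to 5 only and a filter on RNA counts in place of DNA counts (edgeR's filterByExpr, 3586 regions, chosen after the values were seen), the log2 difference of atrium over ventricle was 0.25 ± 0.29 (SE; edgeR, adjusted p = 0.570), and with all replicates 0.25 ± 1.19 (adjusted p = 0.963).

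The ESC-Neg region had 2 counts in atrial and 1 in ventricular replicate 1. In atrial replicates 2 to 5 it had 52, 68, 73 and 66 counts, or 30.9, 29.8, 34.7 and 40.3 CPM. In ventricular replicates 2 to 5 it had 115, 196, 152 and 145 counts, or 42.2, 59.0, 42.0 and 49.4 CPM. Each of these ventricular libraries lay above each of the atrial ones, an order that 16.1% of the 3586 regions showed, but the log2 difference of -0.43 ± 0.28 did not pass (SE; edgeR, adjusted p = 0.293; 24.9% of the regions passed). Among the 176 Neg regions without DNA counts the ESC-Neg region was near the middle, with 49.4% of them below it in atrium and 55.1% in ventricle. The mid-body region was higher, with 81.6% and 77.0% of all 488 regions without DNA counts below it. Whether the DNA libraries describe the pool that gave replicates 2 to 5 was not tested.

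Beyond the 5 regions, 4 more lay within 300 kb of the Tbx5 gene body. A region tagged vMTF+p300 (chr5:119651683-119652082) lies 144632 bp before it and belongs to the neighbouring gene Tbx3, which encodes a T-box repressor. Its log2 difference between chambers was -0.06 ± 0.14 (SE; edgeR, adjusted p = 0.787), and it was below DNA in atrium (-0.96) and in ventricle (-0.78). A region tagged aMTF-p300 (chr5:120015258-120015657) lies 130237 bp past the upper end with no protein-coding gene within 100 kb. It showed a difference of 0.02 ± 0.13 between chambers (adjusted p = 0.936) and was also below DNA in both (-1.17 and -1.07). The other two are Neg regions of Tbx3, tagged ESC_Neg and ESC-Neg. The ESC_Neg region, the one with DNA counts, differed by 0.07 ± 0.37 (adjusted p = 0.914). Over these 300 kb the proximal tile had the largest chamber difference of the 6 regions tested.

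The tags of the tile pair are rare together. Of the 14 regions that carry GeneAVB, aMTF+p300 and p300AVB together, 12 were tested, with a median log2 difference between chambers of 0.69. Of the 12, 6 passed toward atrium, where 15.8% of all tested regions did. The proximal tile is 1 of these 6. Of the 27 tested regions with the tags of the far-body region, 6 passed toward atrium and 7 toward ventricle, where 15.8% and 15.1% of all tested regions did. These counts are few, and the tags were looked at because the Tbx5 regions carry them.

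Among tested regions of other genes, the levels most like those of the proximal tile over the 10 RNA libraries were at Chst3, a sulfotransferase of chondroitin chains (inside the gene, chr10:60197278-60197677, r = 0.985 on log2 CPM), Ptpn1, a tyrosine phosphatase (chr2:167866767-167867166, r = 0.984), and Bdkrb2, a bradykinin receptor (chr12:105529528-105529927, r = 0.984). Without replicate 1 these r were 0.985, 0.984 and 0.983 over 8 libraries. The chambers separate the libraries in all of these regions: their log2 differences were 0.999, 0.57 and 0.89. The 3 regions most like the distal tile, at Lmntd1, Faap20 and Ppargc1b, reached r = 0.860, 0.859 and 0.846, and those most like the far-body region, at B4galt6, Mgmt and Zswim4, r = 0.842, 0.776 and 0.769. These are the highest values among all tested regions of other genes and describe likeness across libraries that share depth and tissue.

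Heart transcription factor genes, and genes taken as TBX5 targets or atrial rhythm genes, were looked at through the regions nearest to them. The lists were chosen with earlier results of these data known. Whether any of these regions depends on TBX5 was not tested. Of 30 heart transcription factor genes other than Tbx5, 10 had tested regions, 24 in all. Between chambers 2 of these regions passed toward atrium and 8 toward ventricle (8.33% and 33.3%, against 15.8% and 15.1% of all tested regions). The median log2 difference over the 24, whether they passed or not, was -0.12, against 0.03 over all tested regions. Irx4, a ventricular identity factor, held 5 of the 24 regions, and 3 of them passed toward ventricle. The smallest p-values belonged to a region 7923 bp from Irx4 (chr13:73277346-73277745, -1.33 ± 0.12, adjusted p = 4.09e-07) and another 20772 bp from it (chr13:73290195-73290594, -1.01 ± 0.10, adjusted p = 1.14e-06). Next came a region 43358 bp from Nr2f2, which encodes the atrial identity factor COUP-TFII (chr7:70409905-70410304, -0.77 ± 0.08, adjusted p = 1.25e-06). That region thus lay on the ventricular side, with an atrial mean of 756 ± 39.8 CPM and a ventricular mean of 1305 ± 73.3 CPM (SD, n = 5 each). The proximal tile of Tbx5 lay on the other side of the scale from these 3 regions. The same genes also had regions toward atrium that did not pass, the other tested Nr2f2 region at 0.61 and the highest Irx4 region at 0.58.

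Of 29 genes taken as TBX5 targets or atrial rhythm genes, 13 had tested regions, 30 in all. The median log2 difference over the 30, whether they passed or not, was 0.26. Between chambers 10 of them passed toward atrium and 4 toward ventricle (33.3% and 13.3%). The 10 lay at Kcnj5 (2 of 5 regions), Myl4 (2 of 3), Myl7 (2 of 2), Bmp10 (1 of 4), Nppb (1 of 2), Ryr2 (1 of 2) and Sln (1 of 1), and the 4 at Cacna1c (2 of 2), Kcnq1 (1 of 3) and Id2 (1 of 1). A region 16201 bp from Nppb, the gene of a natriuretic peptide (chr4:147969386-147969785), was 1.86-fold higher in atrium (0.89 ± 0.08, adjusted p = 5.14e-07). A region 21906 bp from Kcnj5, a subunit of the acetylcholine-gated potassium channel of atrial cells (chr9:32292601-32293000), was 2.38-fold higher (1.25 ± 0.11, adjusted p = 6.03e-07). The Myl7 region 7404 bp from that atrial myosin light chain gene carries the same 3 tags as the Tbx5 tiles and was 5.25-fold higher (2.39 ± 0.20, adjusted p = 1.62e-06). These folds compare the chambers only. Both tested Nppb regions passed as lower in RNA than in DNA (log2 -1.67 to -0.91 in atrium, -1.69 to -1.59 in ventricle). In each chamber 1 of the 5 Kcnj5 regions passed above DNA and 4 below, and 1 of the 2 Myl7 regions each way. In atrial RNA against DNA, 13 of the 30 regions of this list passed above DNA and 13 below it, and in ventricular RNA 11 and 13. These shares (43.3% and 43.3%, then 36.7% and 43.3%) were near those of all tested regions (38.4% and 36.3%, then 43.4% and 37.8%). Of the 24 transcription factor regions 12 passed above DNA and 7 below in atrium (50% and 29.2%), with 13 and 5 in ventricle (54.2% and 20.8%).

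**Figure D5:**
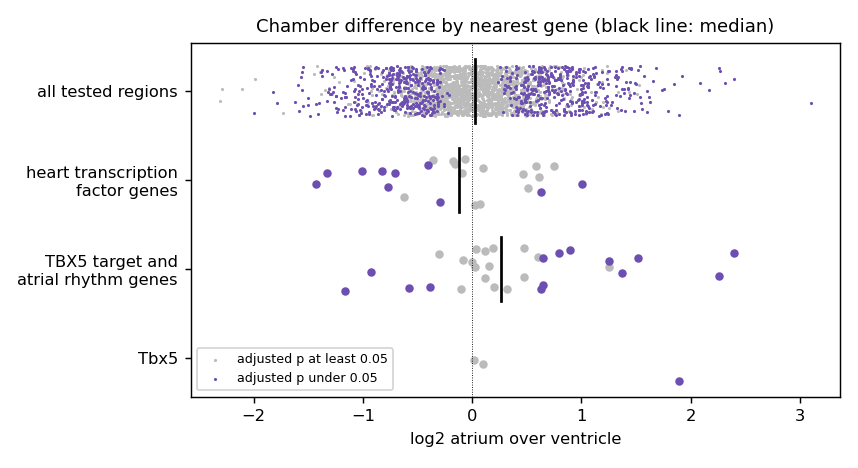
Log2 difference of atrium over ventricle for all 2601 tested regions, the 24 regions of heart transcription factor genes, the 30 regions of TBX5 target and atrial rhythm genes and the 3 tested Tbx5 regions; violet points passed the test and black lines are medians. The medians are 0.03, -0.12 and 0.26, and 1 of the 3 Tbx5 regions, the proximal tile at 1.89, passed.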

How the data were processed

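Reporter counts came from 15 libraries. The authors' deposited values are whole-number counts per 400 bp region, with no normalization by the authors (from the values); the table of the whole series and the files of single libraries held the same counts, with 0 differing values. Per the labels' protocols, the primer that copied RNA and viral DNA held a UMI. No source used here says whether counts are reads or UMIs, so limits at 3 counts cover counting error only. The build mm10 and the tools Bowtie2 2.3.4.3 and cutadapt 2.5 are listed in the submitters' processing notes. Coordinates are 1-based. Sequences of the regions are not printed because no genome sequence was used here, and planned motif searches were therefore not run.

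Each comparison was tested on its 10 libraries in R 4.3.3 with edgeR 4.0.16 (TMM factors, robust quasi-likelihood test). The 2601 regions tested average 10 or more DNA counts. Benjamini-Hochberg adjustment covered all of them, and calls have an adjusted p under 0.05. The code was tested on simulated counts. Alternatives were library totals, scaling on the Neg regions, other filters, DESeq2 1.42.0, voom of limma 3.58.1, a replicate block and leaving out libraries. A filter on RNA counts with replicates 2 to 5 only, and the ratios between Tbx5 regions, were chosen after the values were seen. The members and lists were chosen with earlier results of these data known. Named beside the members are, per member, the 3 regions of highest correlation and, per list, the 3 called regions of smallest p between chambers. Deviations of same-numbered atrial and ventricular libraries from their group means correlated at 0.225 to 0.819, over the 0.1 set for pairing. The highest value is that of replicate 1, and only replicates 1 and 2 correlated best with their own number. The numbers were therefore used as pairs only in the same-numbered differences and in the replicate block. The main tests between chambers have no block. Between RNA and DNA the deviations correlated at -0.0319 to 0.0605, and outside the replicate block the numbers were not treated as pairs.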

Additional observations from a re-analysis of the deposited data

Results flagged for a closer look

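In the ESC-Neg region, atrial replicate 1 lay far below the other atrial libraries, at 2.08 CPM, with a gap of 0.726 of the whole range of the group. In the far-body region, DNA replicate 4 lay below the other DNA libraries, at 139.6 CPM, with a gap of 0.762 of the range. Both exceed the limit of 0.71 for 5 samples, which chance passes in about 1 of 20 groups, and 13 groups were looked at.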

How the results depend on the processing

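The proximal tile kept its direction and its call in all 3 comparisons under every alternative run: its log2 atrium over ventricle ran from 1.80 to 2.03 and its highest adjusted p was 2.81e-05. The far-body region likewise stayed above DNA in both chambers and was not called between chambers (adjusted p from 0.183 to 0.877). The distal tile did not keep its calls. Its log2 ratio to DNA was -0.41 in atrium and -0.42 in ventricle with library totals, -0.0893 and -0.242 with scaling on the Neg regions, and, leaving out single libraries, -0.87 to -0.57 and -0.77 to -0.54. With a replicate block its atrial ratio was -0.74 and lost its call (adjusted p = 0.0651). Its uncalled chamber difference changed sign with voom (-0.0315), with the replicate block (-0.0095) and when single libraries were left out (-0.12 to 0.12). The block changed no other call of the 3 tested Tbx5 regions, and it was not run for the mid-body and ESC-Neg regions. Regions called over the table in atrium against DNA were 2952 without a filter and 1280 with at least 100 DNA counts, and in ventricle 3171 without a filter. More regions were tested without a filter and fewer with at least 100 DNA counts, and shares are not given for these settings. The cause of these and the other changes was not tested. The distal and proximal tiles have too few DNA counts for the filter at 100. The distal tile had 18 to 75 counts per library. Whether depth plays a part in its lost calls was not tested.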
